A study of Rattus norvegicus with 6 samples.

Results

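Transcripts of potassium channel genes were measured in whole adrenal glands of 2 inbred rat strains, SHR, which is spontaneously hypertensive, and its normotensive comparator WKY, the Wistar-Kyoto strain. The members are all probe sets of the array whose annotated gene symbol starts with Kcn, which names the pore-forming and accessory subunits of potassium channels. They number 82 of the 8740 probe sets left after controls, and stand for 54 of the 4736 genes that a probe set names alone, of which 32 have 1 probe set and 22 have several. Whole glands gave total RNA for 6 single-colour Affymetrix RG-U34A arrays, 3 of each strain, and the labels name no treatment, age, sex or engineered allele. Nothing in them shows whether a strain's 3 samples were separate animals, so the p-values cover the spread among the samples alone, and that spread may be technical.

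Potassium channels let potassium leave the cell along its gradient, which pulls the membrane potential down and limits calcium entry through voltage-gated calcium channels. In the outer cortex, leak and inwardly rectifying potassium channels hold the zona glomerulosa cell at a negative resting potential and so restrain aldosterone output. In the medulla, voltage-gated and calcium-activated potassium channels shape the action potentials that drive catecholamine release from chromaffin cells. Smooth muscle of the gland's vessels and the nerves that enter it carry further channels of the same families, and a whole-gland extract mixes all of these cells. In such bulk samples, fewer cells of a type and less RNA per cell cannot be told apart.

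The glands carried the markers of both tissues. Star and Cyp11a1, which start steroid synthesis in the cortex, read 74944 ± 17177 and 84806 ± 11467 in SHR against 85421 ± 17100 and 89229 ± 11858 in WKY (means of intensity with SD, n = 3 a strain). Th, the first enzyme of catecholamine synthesis, read 12189 ± 2532 and 12284 ± 1604. Values had been scaled to a common level by the authors, with array medians from 798.3 to 899.5. The array files name no run but give hybridization times. Split by time of day at a gap of over 60 minutes, SHR replicate 1 and the 3 WKY arrays fall in a first hybridization run. SHR replicates 2 and 3 fall in a second. The file of SHR replicate 2 gives a scan time before its hybridization time, so this grouping is uncertain. The 3' over 5' signal of the hexokinase control, higher in degraded RNA, was 4.21 in SHR replicate 2 and from 1.96 to 2.54 in the other arrays, while that of GAPDH was 0.947 in SHR replicate 2 and from 0.901 to 1.14 over the 6 arrays.

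Most potassium channel probe sets were dim. Their median of the mean intensity over the 6 arrays was 372.7, where the median over all probe sets was 852.9, and 26 of the 82 had a mean below 181.5, the 20th percentile of all values in the table. Only 27 of the 82 (32.9%), from 22 genes, passed the filter on dim probe sets that kept 60% of all. The other 55 probe sets include every probe set of 32 genes, and they are given by their values alone. The ranking by mean intensity was led by both probe sets of Kcnk3 at 15864 and 9857, followed by 1 of Kcnh3 at 8256, 1 of Kcnh2 at 5370, 1 of Kcnmb1 at 3810 and 1 of Kcnab2 at 2687. The dimmest tested member was Kcnk1 at 691.1 and the brightest untested one Kcnh6 at 562.2. Signal depends on each probe set's own oligonucleotides, so the ranking orders probe sets by brightness and does not order transcripts by abundance.

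**Figure D1:**
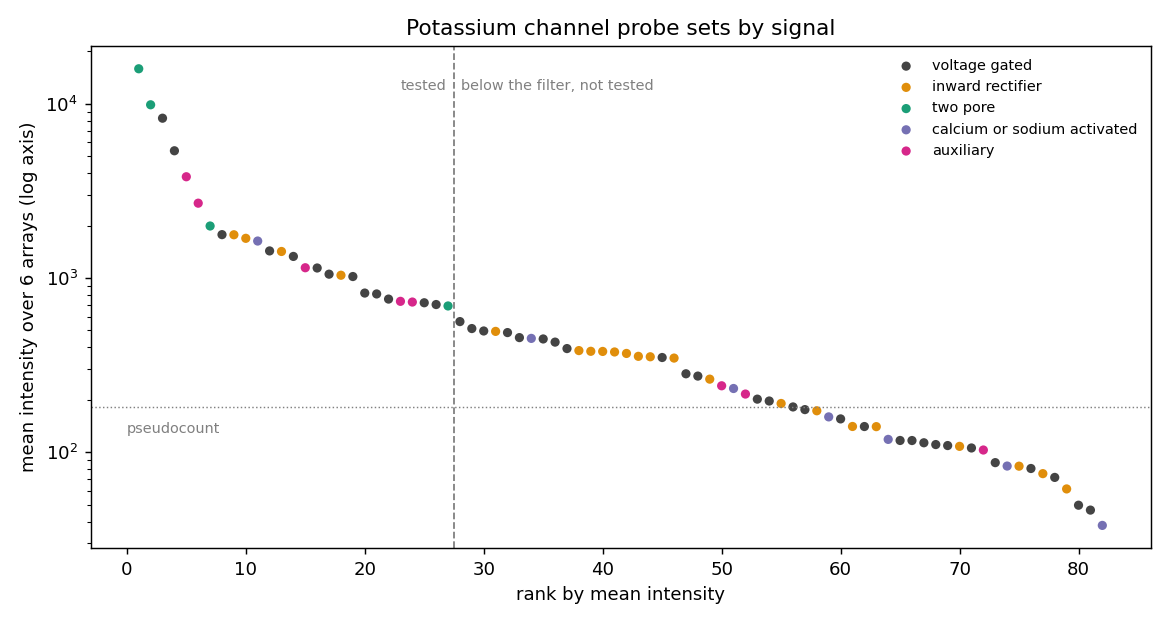
Mean intensity over the 6 arrays (log axis) of the 82 potassium channel probe sets against their rank, coloured by channel family. The 27 tested probe sets lie left of the dashed line, between 691.1 and 15864, and the dotted line marks the pseudocount of 181.5.

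No tested potassium channel probe set passed the test of a strain difference. With limma on log2(intensity + 181.5), 0 of the 27 passed an adjusted p of 0.05, where 1.95% of the 5244 probe sets tested did, and the smallest adjusted p among them was 0.204. At an unadjusted p under 0.05 there were 2 (7.41%), beside 13.9% of all tested probe sets. These were Kcnf1 and 1 of the probe sets of Kcnh3, both lower in SHR by their values. Of the 27 differences, 14 had a positive sign (higher in SHR) and 13 a negative one, with a median of 0.05 where the median over all tested probe sets was -0.007. The median size of the difference was 0.23, against 0.22 over all tested probe sets. The strains' ranges did not touch in 5 of the 27 (18.5%), 2 with SHR above and 3 with WKY above, and in 20.7% of all tested probe sets.

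The data bound these differences to unequal degrees. The 95% interval of the strain difference lay within 2-fold either way (1 on the log2 scale) in 16 of the 27 probe sets, or 59.3%, against 72.8% of all tested probe sets. In the other 11 it reached beyond 2-fold on at least 1 side, so that a strain difference of that size lies within what these 3 arrays a strain allow. The median residual SD of a tested member was 0.32 (log2) and that of all tested probe sets 0.26. A difference on this scale understates the fold change of dim probe sets.

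**Figure D2:**
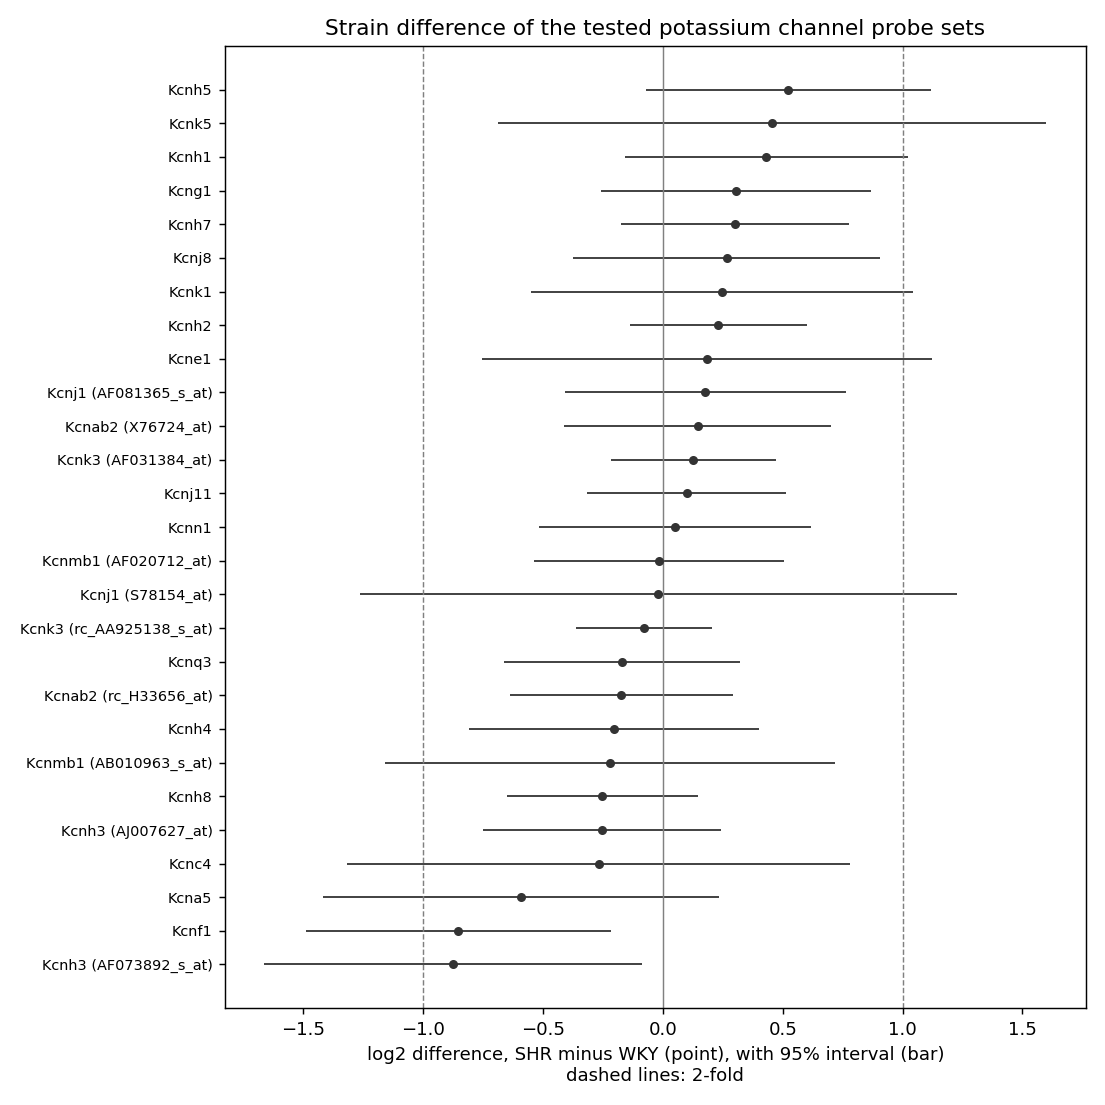
Log2 difference SHR minus WKY (points) with its 95% interval (bars) for each of the 27 tested potassium channel probe sets, sorted by the difference, with dashed lines at 2-fold. The 2 intervals that leave out 0, those of Kcnf1 and of Kcnh3 (AF073892_s_at), lie below it, and 16 of the 27 stay between the dashed lines.

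The two-pore channels, which stay open at rest and carry the leak current, had all 4 of their probe sets tested (3 genes). Kcnk3, the acid-sensitive leak channel known from glomerulosa cells, read 17966.2, 18335.6 and 13566.1 in SHR replicates 1, 2 and 3 and 15686, 13763.6 and 15866.5 in WKY replicates 1, 2 and 3 with its first probe set (AF031384_at). The ranges of the strains overlap, with SHR replicate 3 the lowest array of the 6 and SHR replicate 2 the highest. Its second probe set (rc_AA925138_s_at) read 9532.1, 9317.2 and 9862.5 in SHR and 9925.6, 9335.3 and 11167.5 in WKY, again with overlap. The differences were 0.13 ± 0.15 (SE; 95% interval -0.22 to 0.47, adjusted p = 0.754) and -0.08 ± 0.12 (-0.36 to 0.21, 0.832), of opposite sign. These were the 2 narrowest intervals of the 27, both well inside a 2-fold difference. Across the 17 alternative settings the first probe set ran from 0.05 to 0.26 and the second from -0.14 to -0.009.

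The other two-pore genes were less well bounded. Kcnk5, an alkaline-activated leak channel, read 1143.2, 2484.4 and 3134.2 in SHR and 1284.1, 752.1 and 3126.9 in WKY, so that each strain spread widely and the ranges overlapped. Its difference of 0.46 ± 0.50 (interval -0.69 to 1.60) turned to -0.32 once the hybridization run was a block, and it was at 0.04 without WKY replicate 2, 0.18 without SHR replicate 3, 0.85 without SHR replicate 1 and 0.96 without WKY replicate 3. Kcnk1, a weakly conducting member, was at 0.25 ± 0.35, with WKY replicate 1 at 293.5 and the other 5 arrays from 638.7 to 927.8. No probe set named Kcnk9, the closest relative of Kcnk3, in the annotation used here.

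The ether-a-go-go group (Kcnh), voltage-gated channels with a cyclic nucleotide binding-like domain, was the best represented among the voltage-gated genes, with 8 of its 11 probe sets tested, 4 of positive and 4 of negative sign. Kcnh2, whose channel repolarizes the cardiac action potential, read 6680.9, 5516.3 and 5248.4 in SHR and 5228.2, 5317.1 and 4226.1 in WKY (U75210_s_at). Only SHR replicate 3 fell below the highest WKY array, and the difference was 0.23 ± 0.16 (interval -0.14 to 0.60, adjusted p = 0.574). Its other probe set (Z96106_at) lay below the filter, with arrays from 316 to 610.1.

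Kcnh3 gave different readings with its 2 tested probe sets. The brighter one (AJ007627_at) read 8778.1, 6783.2 and 6749.4 in SHR and 8245.3, 12009 and 6973 in WKY, with a difference of -0.25 ± 0.22 (adjusted p = 0.654). The other (AF073892_s_at) read 636.8, 572.8 and 666 in SHR and 2247.1, 1243.4 and 751.1 in WKY. The SHR arrays were close together and all lay below the WKY arrays, among which WKY replicate 1 stood far above. This was the largest difference in size among the tested members, at -0.88 ± 0.34 (interval -1.66 to -0.09), but it did not pass (limma adjusted p = 0.304), and without WKY replicate 1 it was at -0.52 (adjusted p = 0.549).

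In 3 further Kcnh genes the strains did not overlap, although none passed the test, and 20.7% of all tested probe sets showed no overlap. Kcnh7 read 1146.8, 1211.2 and 1164.6 in SHR and 1118.6, 743.6 and 926.1 in WKY (0.30 ± 0.21, adjusted p = 0.572). Kcnh1 read 903.7, 806.6 and 1187.2 in SHR and 476, 758.3 and 785.9 in WKY (0.43 ± 0.26, 0.499). For Kcnh8 the order was turned, at 1730.7, 1403.8 and 1675 in SHR and 1798.5, 1852 and 2180.1 in WKY (-0.25 ± 0.17, 0.572). The gap between the strains was small in each of the 3, less than the spread within 1 of the strains. Kcnh5 stood at 0.52 ± 0.26 (adjusted p = 0.414), the largest positive difference among the tested members, with WKY replicate 1 at 1256.3 above the lowest SHR array at 1254.4. Without WKY replicate 3, the lowest array, it was at 0.28. Kcnh4 was at -0.20 ± 0.26, and Kcnh6, below the filter, ran from 208.7 to 952.1.

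**Figure D3:**
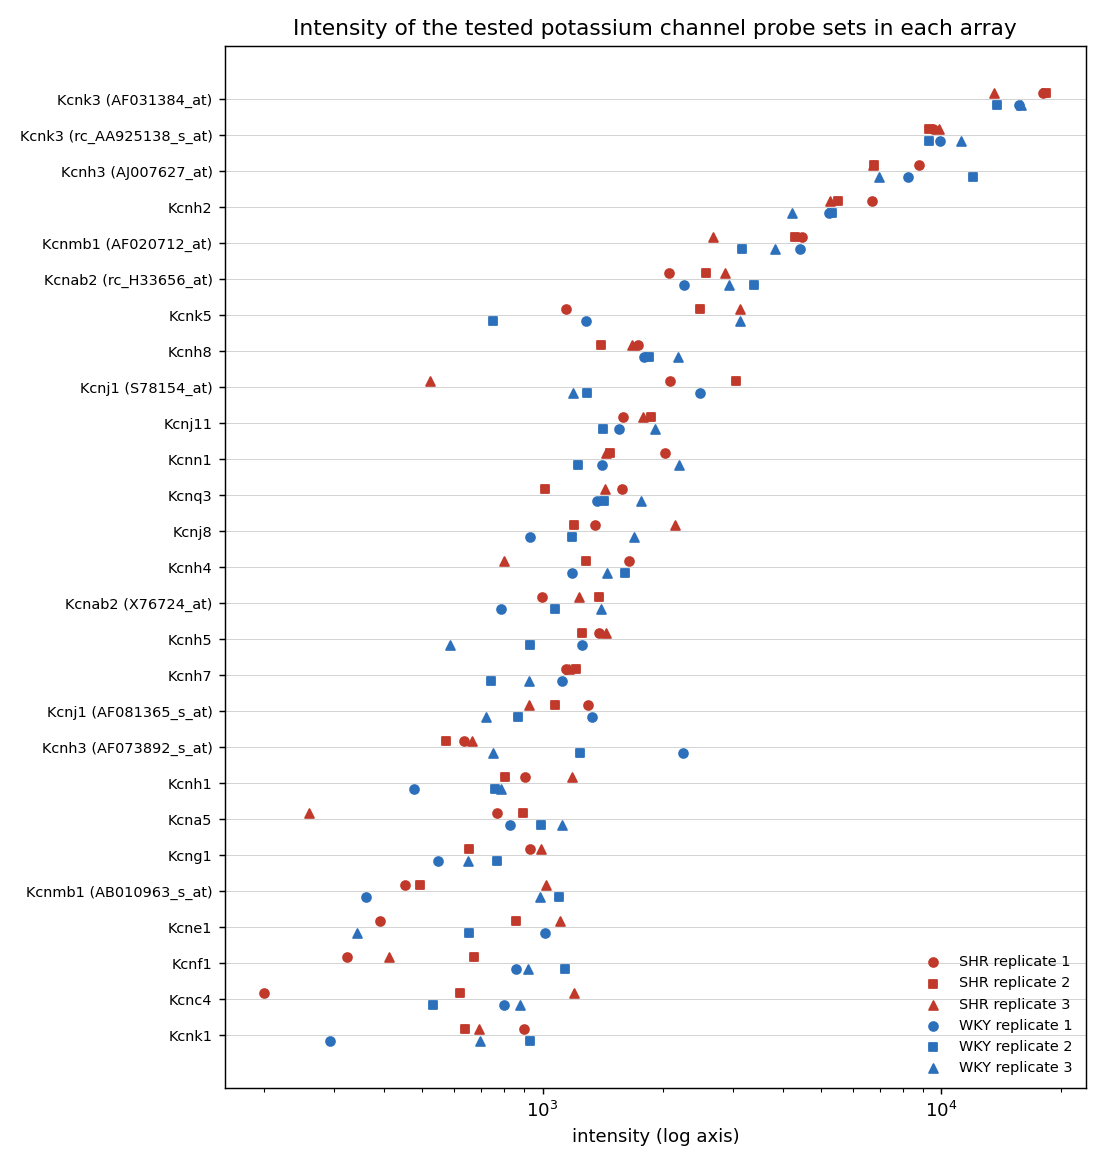
Intensity (log axis) of the 27 tested potassium channel probe sets in each of the 6 arrays, in order of mean intensity, with SHR in red above WKY in blue and a marker for each replicate number. The strains are wholly apart in 5 probe sets, those of Kcnh8, Kcnh7, Kcnh1, Kcnf1 and the second of Kcnh3.

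Kcnf1 had the smallest p among the tested potassium channel genes. It encodes an electrically silent subunit, which forms no channel alone and modifies the delayed rectifiers it joins. Its probe set read 322.6, 673.9 and 413 in SHR and 859.8, 1135.5 and 921 in WKY, so that every SHR array lay below every WKY array. The means were 469.8 ± 182.4 and 972.1 ± 144.8 (SD, n = 3 each). The difference was -0.85 ± 0.28 (interval -1.49 to -0.22; limma adjusted p = 0.204). It stood at -1.19 when the run was a block (adjusted p = 0.373) and between -1.07 and -0.69 when 1 array was left out, and it passed in none of its 16 alternative settings, where its adjusted p ran from 0.163 to 0.432. Kcng1, another silent subunit, stood at 0.31 ± 0.24, and the silent subunit genes Kcns1, Kcns3 and Kcnv1 lay below the filter.

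The classical voltage-gated families were mostly dim. Of the 10 Kcna probe sets, for delayed rectifier and A-type channels, 1 was tested, that of Kcna5, at 769.1, 893.6 and 259 in SHR and 828.3, 988.6 and 1121.5 in WKY. SHR replicate 3 alone stood far below the rest, and the difference was -0.59 ± 0.36 (adjusted p = 0.511). Of 6 Kcnc probe sets, for the fast-acting channels of rapidly firing cells, 1 was tested, that of Kcnc4 (-0.27 ± 0.45), where the SHR arrays spread from 200.6 to 1198.6 and the value moved to -1.24 when the run was a block. None of 5 Kcnd probe sets, for A-type channels, was tested, nor was the 1 of Kcnb2. Kcnq3, a subunit of the M-type channel that muscarinic receptors close, was at -0.17 ± 0.21 with 1 probe set (AF091247_s_at), while the other stayed between 40.2 and 60.5 in all arrays.

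Inward rectifiers made up 22 probe sets and 15 genes, of which 4 probe sets of 3 genes were tested and 0 passed. Kcnj11 and Kcnj8 form the pores of ATP-sensitive channels, which tie excitability to cell metabolism. Kcnj11 read 1589.9, 1875.4 and 1781.3 in SHR and 1554.2, 1419.1 and 1914.3 in WKY (D86039_at), with overlap and a difference of 0.10 ± 0.18 (interval -0.32 to 0.51). Kcnj8, known from vascular smooth muscle, read 1357.2, 1202.3 and 2146.4 in SHR and 932.2, 1182.1 and 1697.5 in WKY, and replicate 3 was the highest array within each strain (0.27 ± 0.28, adjusted p = 0.723). Abcc9, a regulatory subunit of these channels chosen after its value was seen, stood at 0.10 ± 0.19.

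Kcnj1, known as the secretory potassium channel of the kidney tubule, had the widest interval of the family. Its first probe set (S78154_at) read 2086.7, 3050 and 523.5 in SHR and 2479.5, 1289.1 and 1191.9 in WKY, so that SHR held both the highest and the lowest array. The difference was -0.02 ± 0.54 (interval -1.26 to 1.23), and it stood at 0.63 without SHR replicate 3 and at 0.37 when the run was a block. The second (AF081365_s_at) read 1300.5, 1076 and 927.3 against 1330.7, 866.1 and 722.3 (0.18 ± 0.25), and the last (AF081366_s_at), below the filter, ran from 124.4 to 609.2. The summed level of 6 tested kidney marker genes was 7155 to 9738 over the SHR arrays and 7344 to 9953 over the WKY arrays, and its part in the spread of Kcnj1 was not tested. Kcnj5, the G protein-gated inward rectifier of glomerulosa cells, lay below the filter at 366.1, 436 and 294.6 in SHR and 277.4, 465.4 and 434.6 in WKY, with the strains overlapping.

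Calcium-activated and sodium-activated channels had 7 probe sets, 1 of them tested. That was Kcnn1, a small-conductance channel that calcium opens through calmodulin, at 0.05 ± 0.25 (interval -0.52 to 0.62). All 4 probe sets of Kcnma1, the pore of the large-conductance channel that chromaffin cells are known for, lay below the filter. In the brightest of them (AF083341_s_at) the arrays ran from 145.8 (SHR replicate 3) to 1009.3 (WKY replicate 1), and in the most even one (U93052_s_at) from 203.8 to 255.4. Kcnn3 was the dimmest of the 82 probe sets, at 26, 65.9 and 44.3 in SHR and 30.9, 31.9 and 29.4 in WKY, and no probe set named Kcnn2 in the annotation used here.

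Accessory subunits had 5 of 8 probe sets tested, 2 of positive and 3 of negative sign. Kcnmb1, the beta subunit that makes the large-conductance channel of smooth muscle more sensitive to calcium, read 4468.6, 4299.7 and 2680.2 in SHR and 4419, 3169.1 and 3822 in WKY with its brighter probe set (AF020712_at). The strains overlapped, with SHR replicate 3 the lowest array, and the difference was -0.02 ± 0.23 (interval -0.54 to 0.51, adjusted p = 0.983). Its other probe set (AB010963_s_at) read 451.3, 492 and 1019 in SHR and 360.5, 1097.8 and 987.6 in WKY (-0.22 ± 0.41). In the first probe set SHR replicate 3 was the lowest of the SHR arrays, and in the second it was the highest. Acta2, the smooth muscle actin, was at 3946 ± 345 (SHR) and 1442 ± 42.5 (WKY), with a limma adjusted p of 0.00491 that became 0.118 when the run was a block (log2 differences 1.34 and 1.22), while the other 2 smooth muscle markers tested, Tagln and Myh11, stood at 0.14 and -0.14 and did not pass.

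Kcnab2, a cytoplasmic beta subunit of voltage-gated channels, had 2 tested probe sets of opposite sign, at -0.17 ± 0.20 and 0.15 ± 0.24. Kcne1, a single-span subunit that slows its partner Kcnq1, was at 0.19 ± 0.41 and turned to -0.49 when the run was a block. Kcnq1 itself lay below the filter at 97.1, 111.1 and 208.9 in SHR and 67.8, 92.3 and 78.7 in WKY. The 3 SHR values of Kcnq1 lay above the 3 WKY values, and 5 of the 6 values lay below the pseudocount.

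Of the 5 genes with 2 tested probe sets, Kcnk3, Kcnab2 and Kcnj1 had probe sets of opposite sign, and Kcnh3 and Kcnmb1 had probe sets of 1 sign. With the arrays scaled to a common median the brighter Kcnmb1 probe set turned to 0.02 and the brighter Kcnj1 one to 0.01, so those signs depend on the scaling. Names that end in _s_at, as 29 of the 82 do, mark probe sets whose oligonucleotides can match more than 1 transcript, so close relatives of a named gene may add to their signal.

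The 55 probe sets below the filter had mean intensities from 38.07 to 562.2. In 6 of them the strains did not overlap, 5 with SHR above and 1 with WKY above, which is 10.9% of them, where 11.8% of all probe sets below the filter showed no overlap. Kcns3, a silent subunit, read 578.3, 888.3 and 660.6 in SHR and 116.6, 409 and 77 in WKY. Kcna2, an axonal delayed rectifier, read 203.5, 217.5 and 140.7 in SHR and 97.8, 21.9 and 20 in WKY with 1 of its 2 probe sets (J04731_at), and the other overlapped. Kcnc2 read 45.8, 33.6 and 36.4 in SHR and 106.3, 92.7 and 320.5 in WKY with 1 of its 4 probe sets (M59211_at), and the other 3 overlapped. These 3 joined Kcnf1 and Kcnh3 as the 5 of 82 at an unadjusted p under 0.05 (6.10%, beside 11.1% of all) when no filter was set, and 0 of 82 passed the adjusted threshold there, where 0.95% of all probe sets did. Their differences in that fit were 1.30, 0.70 and -0.63, with limma adjusted p of 0.195, 0.166 and 0.367. The other probe sets without overlap were 1 each of Kcnma1, Kcnj10 and Kcnq1, with SHR above.

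In the remaining untested probe sets the strains overlapped. The ranges of means given here by family also cover the untested probe sets without overlap named above. Kcna4, an A-type channel, ran from 99.6 to 680.2 with 1 probe set and from 23.5 to 343.3 with the other. The untested inward rectifiers ran from a mean of 61.63 (Kcnj12) to 494 (1 probe set of Kcnj10), among them the G protein-gated Kcnj3, Kcnj6 and Kcnj9, the strong rectifiers Kcnj2, Kcnj4, Kcnj12 and Kcnj14, and Kcnj13, Kcnj15 and Kcnj16. The untested Kcna probe sets (Kcna1, Kcna2, Kcna3, Kcna4 and Kcna6) had means from 71.77 to 446.9, the Kcnc ones (Kcnc1 and Kcnc2) from 105.9 to 428.7 and the Kcnd ones (Kcnd2 and Kcnd3) from 46.6 to 486.3. Kcnb2 averaged 80.73, Kcns1 175.8 and Kcnv1 496.6, and the sodium-activated Kcnt1 averaged 83.38. The beta subunits Kcnab1 and Kcnab3 averaged 215.9 and 240.8.

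The runs inferred from the hybridization times divide the strains unevenly. The differences were therefore also taken after blocking on the hybridization run, which sets SHR replicate 1 against the 3 WKY arrays. Under that block 0 of the 27 probe sets passed, while 20 of all 5244 did, and the first run taken alone gave the same differences. Kcnf1 and the second Kcnh3 probe set kept a negative sign there, at -1.19 and -0.85. The sign turned for 8 of the 27 probe sets, the farthest being Kcnk5 and Kcne1, and Kcnc4 moved by the most without turning.

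**Figure D4:**
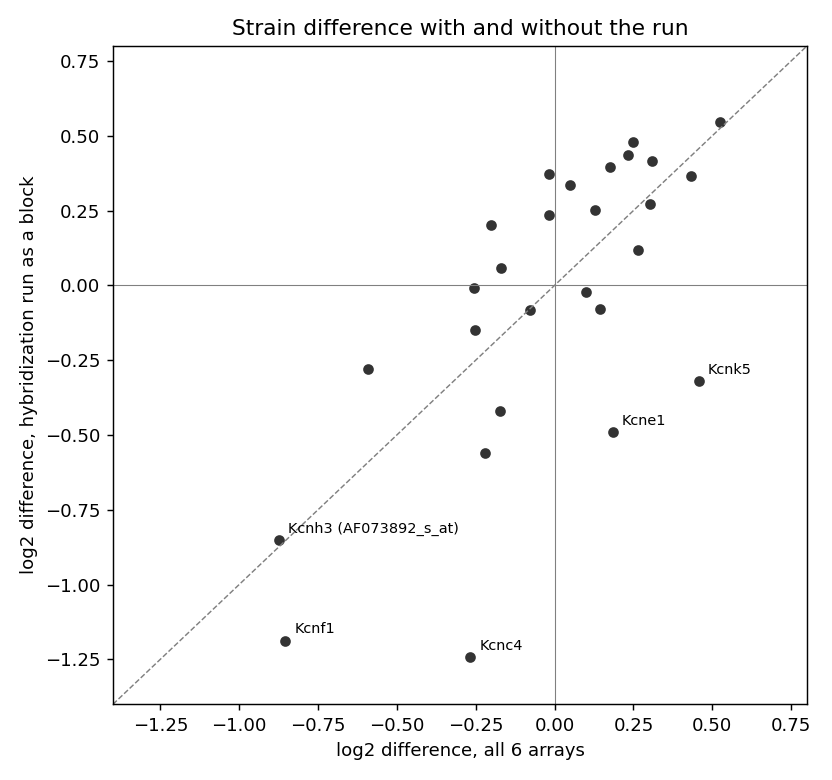
Log2 difference SHR minus WKY of the 27 tested potassium channel probe sets over all 6 arrays (x axis) and after blocking on the hybridization run (y axis), with the dashed line at equality. Kcnf1 and the second Kcnh3 probe set stay negative, at -1.19 and -0.85, and Kcnk5, Kcne1 and Kcnc4 lie farthest from the line.

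Genes that work beside potassium channels gave no call either. With each gene represented by its brightest tested probe set, 1.65% of the 3144 genes passed, 28 higher (0.891%) and 24 lower (0.763%) in SHR, and 13% had an unadjusted p under 0.05. Of 14 tested channel partners, such as scaffold, calmodulin and regulatory genes, 0 rose and 0 fell, with a median of 0.05 and 1 at an unadjusted p under 0.05, Snap25, which binds voltage-gated potassium channels as well as driving exocytosis (-0.70 ± 0.30, limma adjusted p = 0.349). Next came Ywhah, a 14-3-3 adaptor, at -0.29 ± 0.13 (0.380). With the run as a block Snap25 stood at -0.16 and Ywhah at -0.25. Of 14 sodium and calcium channel genes, 0 rose and 0 fell, with a median of 0.28, where the median over all tested genes was -0.01. Their summed level was 34787 to 39109 over the SHR arrays and 32447 to 33601 over the WKY arrays, without overlap. Cacna2d1, the brightest of the 14, weighs most in that sum. It read 12964.4 to 17377.5 in SHR and 9569.5 to 14744.1 in WKY, which overlap, so the gap does not show a difference across all 14. The genes of this list at an unadjusted p under 0.05 were the calcium channel subunits Cacnb1 at 0.55 ± 0.23 (0.329) and Cacna1g at -0.48 ± 0.20 (0.347). Under the run block Cacnb1 stood at 0.71 and Cacna1g at -0.19. Of 6 potassium pump and cotransporter genes 0 passed, with a median of 0.03. Atp1b2, a subunit of the sodium-potassium pump, was at 0.48 ± 0.19 (0.324), and at 0.42 under the run block. Slc12a2, the sodium-potassium-chloride cotransporter, was at 0.43 ± 0.23 (0.455), and at 0.52 under that block.

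The cell types that carry these channels were followed by their markers. The summed level of 10 tested chromaffin markers was 43125 to 54283 over the SHR arrays and 57032 to 65536 over the WKY arrays, with no overlap. This sum weighs bright genes most, so the gap does not show a difference across all 10. It holds Pnmt, with means of 13549 in SHR and 20127 in WKY, and Dbh, with means of 2513 and 6425. Dbh was the 1 of the 10 called (-1.29, limma adjusted p = 0.00548). With the run as a block Dbh stood at -1.24 and was not called (0.126). Th stood at -0.02. By sign 8 of the 10 were lower in SHR and 2 higher, the latter Slc18a2 (0.91, limma adjusted p = 0.329) and Ddc (0.14). The 8 cortex markers summed to 305547 to 434618 in SHR and 330301 to 477371 in WKY, and 0 of the 8 passed. The 3 smooth muscle markers summed to 7229 to 8384 in SHR and 4144 to 6386 in WKY, without overlap, but Tagln and Myh11 without Acta2 summed to 3621 to 4451 and 2741 to 4899, which overlap. The 8 nerve and Schwann cell markers summed to 10070 to 11987 and 11063 to 12844, with 0 called. Of 5 fat cell markers 1 fell, Cfd, which encodes the complement protease adipsin, at -2.00 (adjusted p = 0.0324), which with the run as a block stood at -1.87 and was not called (0.319). Their sum was 29425 to 43247 in SHR and 30693 to 62202 in WKY. The 5 endothelial and 5 skeletal or cardiac muscle markers gave 0 calls. Among uncalled markers, the smallest p of each list belonged to Pnmt (-0.57) and in the cortex to Nr0b1 (0.85) and Nr5a1 (0.34). In the nerve, muscle and kidney lists they were Prph (-1.14) and Pmp22 (-0.46), Myl1 (-0.59) and Myl2 (0.22), and Aqp1 (0.45) and Slc22a6 (-0.74). In endothelium and fat they were Flt1 (0.31), Kdr (-0.19) and Fabp4 (-1.52), with adjusted p over all of these from 0.0764 to 0.725. These genes, picked by p, do not give the direction of their lists. By sign, 3 markers were higher and 5 lower in SHR in the cortex list, and likewise in the nerve list. The kidney list had 2 higher and 4 lower. The fat, endothelial and skeletal or cardiac muscle lists each had 2 higher and 3 lower. The part of these cell types in the channel values was not tested.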

How the data were processed

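Per the file itself, the table deposited by the authors holds linear intensities, 1 for each probe set of an array, and none is negative. Which expression algorithm made them is not given in the sources used here. They were already scaled (2% trimmed means all 2504) and were used as they stand. A settings file per array (other values: station, module, times), deposited by the authors, gave the hybridization times. The 2 runs were inferred from the time of day and are not named in those files. Probe sets were named from the platform annotation. Of 8740 without the 59 controls, 7006 had 1 symbol, 308 several and 1426 none, and no probe set with several symbols held a Kcn symbol. Values were taken as log2(intensity + 181.5), and the 5244 probe sets whose mean log2 lay above the 40th percentile (an intensity of about 529.7) were fitted with limma 3.58.1 in R 4.3.3 (lmFit, eBayes with trend), SHR minus WKY, without a covariate, two-sided, with Benjamini-Hochberg adjustment over all 5244 and a threshold of 0.05. Intervals are limma's at 95% and, like the tests, rest on 3 arrays a strain, whose number limits the precision. The fit was also run on 10 simulated tables of independent normal values. These held no run effect, so they do not bear on the part of the hybridization run. Members, gene lists and alternatives were chosen with earlier results of these data known. Every gene with a member probe set could be named. Values are given in every array for members past the threshold or at an unadjusted p under 0.05, the 5 brightest and most of a fixed set of adrenal channel genes. Of that set, Kcna4, Kcnma1 and the untested probe set of Kcnj1 are given by range only, and some Kcnma1 probe sets by no value. Other members were added after their values were seen. Genes of other lists are those past the threshold and the 2 of smallest p in each list, with Star, Cyp11a1, Th and Myh11 added to check the tissue. Slc18a2, Ddc and Cacna2d1 were added after their values were seen.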

Additional observations from a re-analysis of the deposited data

How the results depend on the processing

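No potassium channel probe set and no gene of the 3 partner lists passed under any of the alternatives run (2 other scalings, 2 other pseudocounts, no filter and a stricter one, eBayes without trend or robust, the replicate block, the run as a block, the first hybridization run by itself and each array left out), nor did any channel gene with its probe sets averaged. The smallest adjusted p of a member was 0.120, for Kcnh3 (AF073892_s_at) without WKY replicate 3. No probe set with several symbols named a Kcn gene, so widening the membership changed nothing. Over all probe sets the 102 calls became 60 without a trend, 53 with the replicate block, 20 when the run was a block, 1 in the first run by itself and 36 to 59 with an array left out. Marker genes went from 3 calls to 0 when the run was a block and 0 in the first run by itself, although under that block Dbh, Acta2 and Cfd stood at -1.24, 1.22 and -1.87, near their -1.29, 1.34 and -2.00 over all arrays. Marker calls were 2 with no filter, without a trend, with the replicate block and with any array left out except WKY replicate 3. They stayed at 3 without WKY replicate 3 and under the other scalings, the other pseudocounts, the stricter filter and the robust fit. Little sign of pairing by replicate number was seen. Same-numbered arrays correlated at 0.0009, 0.01 and 0.07 in their deviations, and only arrays numbered 3 correlated best with their own number. Deviations from the mean of 3 arrays cannot exclude a pairing. The replicate block gave 0 member calls.

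Of 446 member values under alternatives 412 kept their sign and 34, in 12 probe sets, turned it, none of them called. The cause was not tested. Many of the 412 could not turn. A changed filter, eBayes without trend or robust, and the replicate block leave the difference itself unchanged. The first run by itself repeats the differences of the run block. The 412 therefore do not measure how stable the signs are. With the run as a block, and likewise in the first run by itself, the turned values were 0.23 for Kcnmb1 (AF020712_at), -0.32 for Kcnk5, 0.37 for Kcnj1 (S78154_at), -0.0223 for Kcnj11, 0.0573 for Kcnq3, 0.20 for Kcnh4, -0.0780 for Kcnab2 (X76724_at) and -0.49 for Kcne1. Kcnmb1 (AF020712_at) was at 0.0210 with quantile normalization and 0.0196 at a common median, and Kcnj1 (S78154_at) at 0.00998 at a common median and 0.0331 with the pseudocount 4 times as high. With each array left out, values ran from -0.14 to 0.21 and from -0.61 to 0.00685 for the Kcnmb1 probe sets, -0.47 to 0.63 for Kcnj1 (S78154_at), -0.11 to 0.27 for Kcnn1, -0.41 to 0.0440 for Kcnh4, -0.0343 to 0.32 for Kcnab2 (X76724_at), -0.13 to 0.52 for Kcne1, -0.71 to 0.22 for Kcnc4 and -0.10 to 0.51 for Kcnk1. Without a turn of sign, Kcnk5 ran from 0.04 to 0.96 and Kcnh5 from 0.28 to 0.74.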
